A study of Mus musculus with 9 samples.

Results

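The genes described here serve the secretory pathway of the endoplasmic reticulum (ER) and its stress response. They are 36 genes chosen by symbol, of which 35 had a probe set annotated with 1 gene symbol, among 18193 genes of the array. Where a gene had several probe sets, the one brightest on average across the 9 arrays was used. Sec61g, a small subunit of the ER translocation channel, was not analysed here. All 35 members entered the test, since no filter on low values was applied.

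Expression was measured on 9 Affymetrix mouse arrays, with 3 arrays labelled T2M (type 2 myeloid cells) and 2 each labelled eosinophils, neutrophils and macrophages. Every cell came from lungs of female BALB/c 4get mice aged 6 to 8 weeks, which carry a green fluorescent (GFP) reporter of Il4. All donors had received IL-25 (0.5 µg in 50 µL, intratracheally, each day for 4 days), so there was no untreated group. All gates were CD11b+. T2M were gated as IL-4/GFP+, Gr-1mid and F4/80+, eosinophils as GFP-, Gr-1hi and F4/80-, neutrophils as GFP-, Gr-1+ and F4/80-, and macrophages as GFP-, Gr-1- and F4/80+. The eosinophil gate was IL-5rα+ and the other gates were IL-5rα-, and the macrophage gate was MHCII+ where the other gates were MHCIIlo. Each array held 1 pool of 4 donors with 400000 sorted cells after CD11b enrichment, and 50 ng of RNA was amplified for it. The purpose stated in the design was to set these inflammatory subsets against each other. In bulk RNA of sorted cells, fewer cells of a type and less RNA per cell cannot be told apart.

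Proteins bound for secretion, for granules or for the cell surface enter the ER through the Sec61 channel, lose their signal peptide, and fold with the help of chaperones and disulfide isomerases. Chains that fail to fold are pulled back and degraded, a route called ER-associated degradation. When unfolded protein builds up, 3 membrane sensors, encoded by Ern1 (IRE1), Eif2ak3 (PERK) and Atf6, start the unfolded protein response. IRE1 splices the messenger of Xbp1, PERK slows translation and favours that of Atf4, and a freed fragment of ATF6 enters the nucleus. XBP1 and ATF6 raise transcription of chaperones and translocation factors. In the eosinophil lineage of mice, Xbp1 is known to be needed for granulocyte progenitors to survive and mature.

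Several checks on the arrays bear on every value below. The arrays labelled eosinophils were lower than T2M in 9 eosinophil markers, with list means of 5.88 and 6.75 against 8.96 to 9.47 on the T2M-labelled arrays. These means were 5.36 and 6.93 on neutrophil-labelled and 4.40 and 4.53 on macrophage-labelled arrays. By label mean all 9 were below T2M and above macrophages. Il5ra, the receptor chain used in the eosinophil gate, was at 5.77 and 4.60 on eosinophil-labelled arrays, near the array medians of 5.48 to 5.68. On T2M-labelled arrays, whose gate was IL-5rα-, Il5ra was at 8.05, 7.18 and 7.52. It was at 6.19 and 4.08 on neutrophil-labelled and 3.85 and 3.71 on macrophage-labelled arrays. On the eosinophil-labelled arrays, Siglecf, at 10.47 and 9.01, and Alox15, at 10.90 and 8.91, were well above the array medians. The same arrays had the highest means over 11 neutrophil markers, 10.59 and 11.05, against 7.10 to 7.92 for T2M, 6.45 and 8.07 for neutrophils and 5.84 and 6.22 for macrophages. The neutrophil-labelled arrays had the highest mean over 12 macrophage and monocyte markers, 11.3 on both. Populations are therefore called by the label of their arrays, and cell type names below stand for these labels, not for identified cells. The macrophage-labelled arrays correlated at 0.994, so they may hold 1 RNA, and the second neutrophil-labelled array correlated at 0.954 with them and at 0.916 with its own partner. The 3' minus 5' difference of the actin control probe sets was 0.61 on the first T2M-labelled and 0.54 on the first eosinophil-labelled array and between -0.10 and 0.03 on the other arrays. That of Gapdh was 2.35 to 3.43 on T2M-labelled arrays, against 1.02 to 2.41 on the others.

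A known target sequence of the unfolded protein response is the ER stress response element, ERSE, made of CCAAT, a gap of 9 bases, and CCACG. It was searched on both strands of RefSeq promoter windows (assembly GRCm38.p6, 250 bases before to 50 after the annotated start), which 30 of the 36 members had. Atf6, Manf, Rcn1, Sec61a1, Spcs3 and Ssr2 had no window in the table. The element was found in 8 of the 30 members (26.7%), against 37 of 27025 genes with a window (0.137%). The 9 matches are shown because they mark which members carry the classical element. Each is written in the direction of the element, and capitals mark its CCAAT and CCACG ends.
Calr: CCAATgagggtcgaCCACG
Canx: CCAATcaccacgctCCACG
Creld2: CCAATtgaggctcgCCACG
Dnajc3: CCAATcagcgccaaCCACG
Hsp90b1: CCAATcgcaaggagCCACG
Hsp90b1: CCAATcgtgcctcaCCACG
Hspa5: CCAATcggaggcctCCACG
Pdia6: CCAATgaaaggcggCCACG
Syvn1: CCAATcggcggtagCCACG

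Hspa5 and Hsp90b1 encode the main heat shock family chaperones of the ER, and Hsp90b1 held the element on each strand. The first base of the matches lay between 44 bases (Syvn1) and 212 bases (Hsp90b1) before the start. ERSE-II, which is ATTGG, 1 base, and CCACG, was found in 2 of 30 members (6.67%) and in 12 of all genes (0.0444%). Its capitals mark the same kind of ends below.
Dnajb11: ATTGGcCCACG
Herpud1: ATTGGgCCACG

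The XBP1-type element TGACGTGG was in 0 of 30 member windows and in 193 of all genes (0.714%). The element of ATF4 and its partners, TGATGNAA, was in Herpud1 alone among the 30 (3.33%), against 1219 of all genes (4.51%). A match describes these letters in this window and does not show that a factor binds there. Whole windows are shown for Calr and Pdia6, which hold the element and were called in a comparison below, and for Ssr4 and Selenom, which hold no searched element and had the widest called differences of T2M-labelled arrays. They are written on the gene's strand with the element in capitals, as it reads on that strand.
Calr, chr8:84846882-84847181, minus strand: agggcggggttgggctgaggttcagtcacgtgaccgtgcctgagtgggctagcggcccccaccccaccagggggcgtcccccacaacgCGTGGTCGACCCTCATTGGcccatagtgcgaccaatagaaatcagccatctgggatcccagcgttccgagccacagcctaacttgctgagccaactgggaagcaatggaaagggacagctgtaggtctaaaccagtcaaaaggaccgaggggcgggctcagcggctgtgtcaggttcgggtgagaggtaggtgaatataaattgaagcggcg
Pdia6, chr12:17266339-17266638, plus strand: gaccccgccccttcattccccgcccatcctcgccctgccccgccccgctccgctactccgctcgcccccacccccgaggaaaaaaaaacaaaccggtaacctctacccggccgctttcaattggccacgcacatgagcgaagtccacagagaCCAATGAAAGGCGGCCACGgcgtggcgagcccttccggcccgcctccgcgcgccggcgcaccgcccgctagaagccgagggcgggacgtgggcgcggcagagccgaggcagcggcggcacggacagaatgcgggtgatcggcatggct
Ssr4, chrX:73786773-73787072, plus strand: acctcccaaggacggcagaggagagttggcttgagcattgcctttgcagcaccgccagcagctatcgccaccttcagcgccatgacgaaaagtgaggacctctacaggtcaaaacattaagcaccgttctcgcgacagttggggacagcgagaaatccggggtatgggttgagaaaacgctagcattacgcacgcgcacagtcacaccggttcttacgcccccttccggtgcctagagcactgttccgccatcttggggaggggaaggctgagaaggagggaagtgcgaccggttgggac
Selenom, chr11:3514434-3514733, plus strand: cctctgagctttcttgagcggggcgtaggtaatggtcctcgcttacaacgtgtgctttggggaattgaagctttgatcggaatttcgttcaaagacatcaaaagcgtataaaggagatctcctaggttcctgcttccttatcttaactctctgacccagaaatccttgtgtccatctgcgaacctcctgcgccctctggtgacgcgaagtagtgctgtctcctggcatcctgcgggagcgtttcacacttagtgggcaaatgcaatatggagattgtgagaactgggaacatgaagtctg

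Over all 35 members, T2M-labelled arrays were not at the top of the range. By label mean, T2M was highest in 4 members (11.4%, against 25.2% of all genes) and lowest in 12 (34.3%, against 16% of all genes). Neutrophil-labelled arrays were highest in 17 members (48.6%, against 22.6%), and macrophage-labelled arrays in 11 (31.4%, against 28.4%). Eosinophil-labelled arrays were highest in 3 and lowest in 18 (51.4%, against 25.1%). The 4 members highest in T2M were Rcn1, Selenom, Atf4 and Sec61a1, and the 3 highest in eosinophil-labelled arrays were Xbp1, Ddit3 and Dnajb9. These counts are a description of label means with no test, and several of the means differ by less than the spread between arrays.

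**Figure D1:**
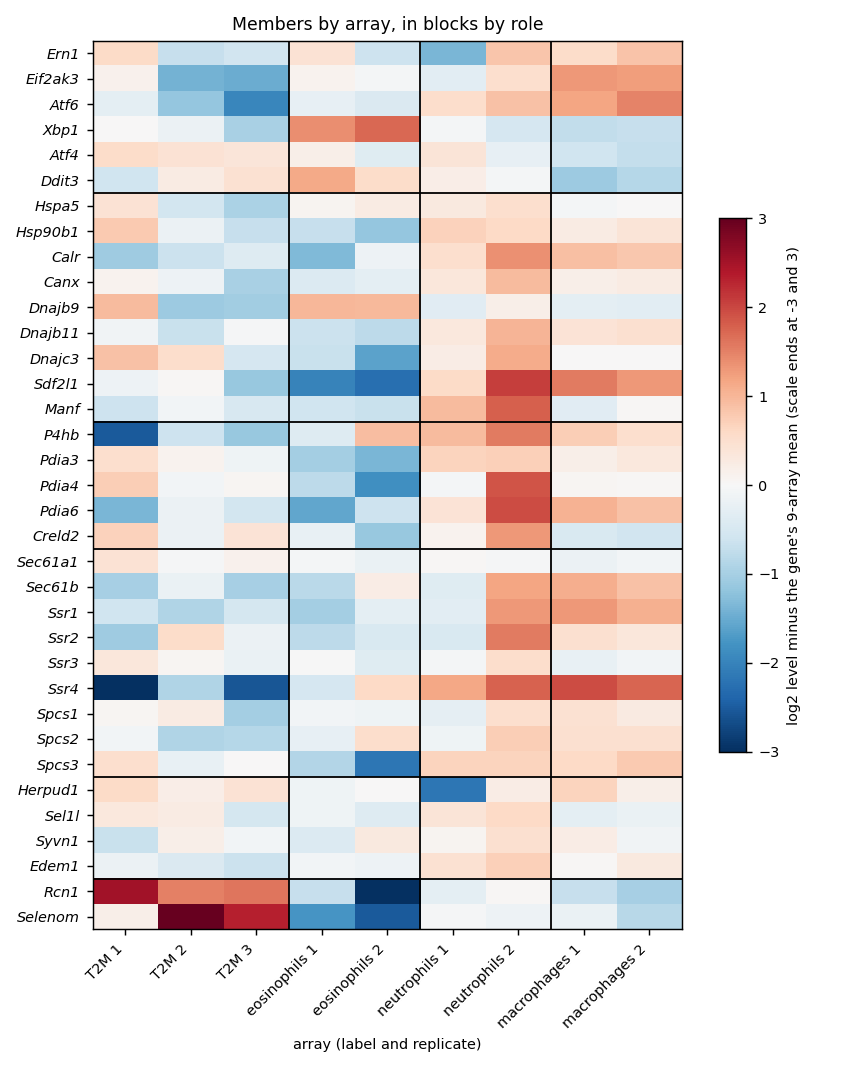
Each row is 1 of the 35 members and each column 1 of the 9 arrays, with T2M at the left. Colour gives the log2 level minus that gene's mean over all arrays, and lines part the roles and labels. Rcn1 and Selenom are high on T2M-labelled arrays, Xbp1 on both eosinophil-labelled arrays, and most rows are red on the second neutrophil-labelled array.

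Arrays of 1 label differed among themselves. Across the members, the median deviation from a gene's own mean was 0.11, -0.17 and -0.52 on the T2M-labelled arrays, -0.40 and -0.36 on eosinophil-labelled, 0.20 and 0.73 on neutrophil-labelled, and 0.22 and 0.27 on macrophage-labelled arrays. Over all genes these medians stayed between -0.13 and 0.12. Of the 3 T2M-labelled arrays, the first was highest in 21 of 35 members and the third lowest in 14. The second neutrophil-labelled array was above the first in 28 of 35 members, by a median of 0.61, whereas the macrophage-labelled pair differed by a median of -0.02.

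Differences between labels were tested with limma on all 9 arrays, with p-values adjusted over all genes, and are given as log2 differences, where 1 is a 2-fold difference. Against eosinophils, T2M-labelled arrays were called higher in 3 members and lower in 1 of 35, at an adjusted p under 0.05, when 4.46% of all genes were called (1.57% higher, 2.89% lower). Against neutrophils, 0 were called higher and 2 lower, when 2.82% of all genes were called (1.25% higher, 1.57% lower). Against macrophages, 2 were called higher and 7 lower, when 17.2% of all genes were called (6.53% higher, 10.6% lower). The same shares over all genes apply to the T2M counts by role and by list below. The median member difference was 0.23 against eosinophils, -0.67 against neutrophils and -0.34 against macrophages, beside medians over all genes of 0.06, -0.03 and 0.18. Over the 10785 genes with any label mean above a log2 level of 6.15, the medians were 0.08, -0.13 and -0.34. Against macrophages the member median was thus the same as that of these brighter genes. In all, 13 members were called in a T2M comparison, 17 in any of the 6 pairs of labels and 18 in none. The matching shares of all genes called in any of several comparisons are not given here. They are at least 17.2% and 17.4%, the largest shares of a single comparison, so these combined counts are tallies only. The 3 comparisons share the T2M-labelled arrays, so their differences are not independent.

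**Figure D2:**
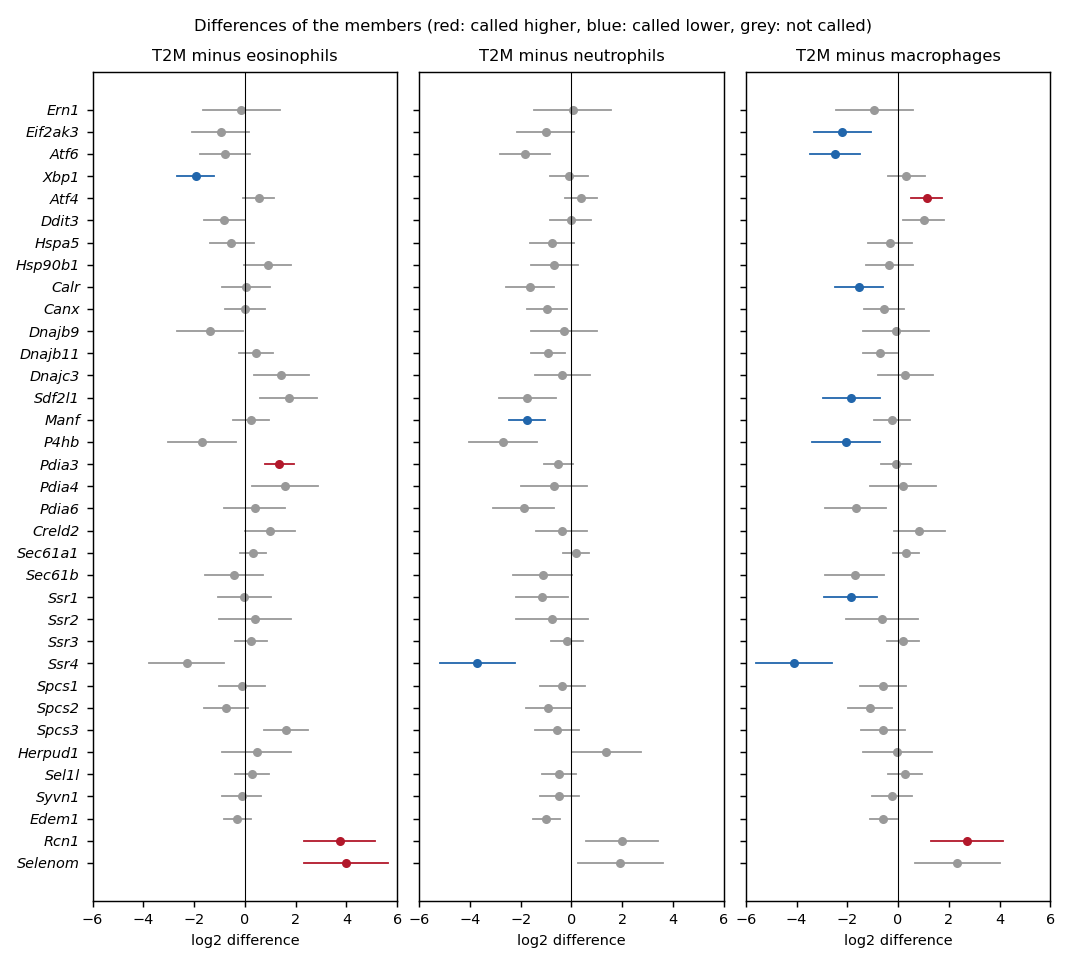
Points give the log2 difference of each member for T2M minus eosinophils, neutrophils and macrophages, and bars its 95% interval from limma. Red points passed the test upwards, blue points downwards, and grey points did not pass. Rcn1 and Selenom lie to the right of 0 in all panels, and most points of the middle panel lie to its left.

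Among the 6 sensors and transcription factors, 1 was called lower against eosinophils, 0 were called against neutrophils, and 1 was called higher and 2 lower against macrophages. Xbp1, the transcription factor activated by IRE1, had log2 levels of 10.38, 10.20 and 9.40 on T2M-labelled arrays, against 11.78 and 12.09 on eosinophil-labelled, 10.32 and 9.87 on neutrophil-labelled, and 9.64 and 9.69 on macrophage-labelled arrays. Both eosinophil-labelled arrays stood above all the others, and T2M overlapped the neutrophil- and macrophage-labelled arrays. Xbp1 fell on T2M-labelled relative to eosinophil-labelled arrays by 1.94 (SE 0.32, adjusted p = 0.0159), 3.84-fold. All 4 probe sets of Xbp1 gave the same direction against eosinophils, with differences of -1.94 to -3.04. Against macrophages the probe set used gave 0.33 and was the exception, since the others gave -1.27, -1.52 and -1.19, of which the second was called over all probe sets (adjusted p = 0.0498). Against neutrophils it gave -0.10 where the others gave -1.68, -1.68 and -1.48, with none called. The arrays do not tell spliced from unspliced Xbp1 apart.

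Atf6, the sensor that is cleaved to a transcription factor, was at 9.02, 8.14 and 7.36 on T2M-labelled arrays, against 9.05 and 8.88 on eosinophil-labelled, 9.83 and 10.19 on neutrophil-labelled, and 10.50 and 10.80 on macrophage-labelled arrays. All T2M-labelled arrays lay below the neutrophil- and macrophage-labelled ones, and they overlapped the eosinophil-labelled ones. It fell relative to macrophages by 2.47 (SE 0.43, adjusted p = 0.0086), and the differences of -1.83 against neutrophils (adjusted p = 0.0689) and -0.79 against eosinophils did not pass. The other 2 probe sets of Atf6 gave -2.25 and -3.34 against macrophages, both called over all probe sets (adjusted p = 0.0104 and 0.00292).

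Eif2ak3, the kinase PERK, had 7.6, 6.05 and 5.97 on T2M-labelled arrays, against 7.58 and 7.41 on eosinophil-labelled, 7.15 and 7.97 on neutrophil-labelled, and 8.76 and 8.71 on macrophage-labelled arrays. The first T2M-labelled array was at the eosinophil and neutrophil level and the other two were lower, while all lay below the macrophage-labelled pair. The fall of 2.20 relative to macrophages passed (SE 0.49, adjusted p = 0.0209). A second probe set gave only -0.36 (adjusted p = 0.452).

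Atf4, the translationally controlled factor downstream of PERK, was at 11.26, 11.14 and 11.08 on T2M-labelled arrays, against 10.89 and 10.35 on eosinophil-labelled, 11.10 and 10.46 on neutrophil-labelled, and 10.10 and 9.99 on macrophage-labelled arrays. It was above both macrophage-labelled arrays without overlap and rose by 1.12 relative to them (SE 0.27, adjusted p = 0.0276). Its second probe set, of nearly the same brightness, showed 0.03 (adjusted p = 0.969), so the call rests on 1 probe set. Ddit3 encodes CHOP, a factor induced late in ER stress. Its levels were 8.28, 9.12 and 9.33 on T2M-labelled arrays, against 10.02 and 9.43 on eosinophil-labelled, 9.07 and 8.82 on neutrophil-labelled, and 7.78 and 8.02 on macrophage-labelled arrays. T2M lay between the eosinophil- and macrophage-labelled arrays without overlap, but its differences of -0.81 (adjusted p = 0.282) and 1.01 (adjusted p = 0.0794) did not pass. Ern1, the kinase and RNase IRE1, was at 8.63, 7.37 and 7.47 on T2M-labelled arrays, against 8.49 and 7.44 on eosinophil-labelled, 6.68 and 8.89 on neutrophil-labelled, and 8.60 and 8.90 on macrophage-labelled arrays. These values overlapped between all pairs with T2M, and no difference passed.

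The 9 chaperones and co-chaperones showed 0 calls against eosinophils, 1 lower against neutrophils and 2 lower against macrophages. All 9 differences against neutrophils were below 0, with a median of -0.94, when 47% of all genes had a difference above 0. Sdf2l1, a partner of the Hsp70-type chaperone cycle in the ER, had 8.48, 8.67 and 7.50 on T2M-labelled arrays, against 6.62 and 6.38 on eosinophil-labelled, 9.20 and 10.72 on neutrophil-labelled, and 10.20 and 9.94 on macrophage-labelled arrays. T2M-labelled arrays stood between the others, above both eosinophil-labelled arrays and below all the rest. Sdf2l1 fell by 1.85 relative to macrophages (SE 0.49, adjusted p = 0.0367). Its differences of 1.72 against eosinophils (adjusted p = 0.0987) and -1.74 against neutrophils (adjusted p = 0.111) did not pass.

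Manf encodes a small secreted protein of the ER that is induced by stress. It was at 8.72, 9.27 and 8.86 on T2M-labelled arrays, against 8.75 and 8.68 on eosinophil-labelled, 10.30 and 11.14 on neutrophil-labelled, and 9.0 and 9.37 on macrophage-labelled arrays. Only the neutrophil-labelled pair stood apart, at the top, and Manf fell in T2M relative to it by 1.77 (SE 0.31, adjusted p = 0.0273). Calr, the calcium-binding lectin chaperone calreticulin, had 9.05, 9.47 and 9.72 on T2M-labelled arrays, against 8.78 and 9.95 on eosinophil-labelled, 10.61 and 11.48 on neutrophil-labelled, and 11.01 and 10.91 on macrophage-labelled arrays. T2M overlapped the eosinophil-labelled arrays and lay below the others. The fall of 1.55 relative to macrophages passed (SE 0.41, adjusted p = 0.0365), and -1.63 against neutrophils did not (adjusted p = 0.0827). Another probe set of Calr gave -2.20 against macrophages (adjusted p = 0.0308) and yet another -0.55 (adjusted p = 0.452).

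Dnajb11, an Hsp40-type partner of the main ER chaperone, was at 10.32, 9.77 and 10.39 on T2M-labelled arrays, against 9.78 and 9.65 on eosinophil-labelled, 10.74 and 11.46 on neutrophil-labelled, and 10.85 and 10.91 on macrophage-labelled arrays. T2M overlapped only the eosinophil-labelled arrays, and no T2M difference passed. Dnajc3, an inhibitor of PERK that also acts as a co-chaperone, had 10.69, 10.33 and 9.31 on T2M-labelled arrays, against 9.14 and 8.21 on eosinophil-labelled, 10.04 and 10.92 on neutrophil-labelled, and 9.83 and 9.81 on macrophage-labelled arrays. It was higher on every T2M-labelled than on any eosinophil-labelled array, yet the difference of 1.43 (SE 0.47) gave an adjusted p of 0.151. The remaining chaperones, Hspa5, Hsp90b1, Canx and Dnajb9, were called in no pair of labels. Their T2M differences ran from -1.38 (Dnajb9, against eosinophils) to 0.91 (Hsp90b1, against eosinophils). A second probe set of Hsp90b1 gave 1.5 against eosinophils and was called over all probe sets (adjusted p = 0.0267).

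Disulfide isomerases form and reshuffle the disulfide bonds of secreted proteins. Of 5 such genes and partners, 1 was called higher against eosinophils, 0 were called against neutrophils and 1 was called lower against macrophages. Pdia3, the isomerase ERp57 that works with calreticulin, had 11.84, 11.44 and 11.20 on T2M-labelled arrays, against 10.30 and 9.96 on eosinophil-labelled, 11.99 and 12.05 on neutrophil-labelled, and 11.51 and 11.64 on macrophage-labelled arrays. The eosinophil-labelled pair was below all other arrays, and T2M was at the macrophage level. Pdia3 rose by 1.36 relative to eosinophils (SE 0.25, adjusted p = 0.023), 2.57-fold.

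P4hb, the classical protein disulfide isomerase, was at 8.15, 10.05 and 9.55 on T2M-labelled arrays, against 10.29 and 11.59 on eosinophil-labelled, 11.63 and 12.24 on neutrophil-labelled, and 11.41 and 11.17 on macrophage-labelled arrays. All T2M-labelled arrays lay below all others, the first of them lowest. It fell by 2.04 relative to macrophages (SE 0.58, adjusted p = 0.047), while -2.68 against neutrophils (adjusted p = 0.0534) and -1.69 against eosinophils (adjusted p = 0.171) did not pass. Pdia6, a further isomerase, had 7.74, 8.94 and 8.55 on T2M-labelled arrays, against 7.56 and 8.48 on eosinophil-labelled, 9.53 and 11.06 on neutrophil-labelled, and 10.15 and 10.00 on macrophage-labelled arrays. T2M and eosinophil-labelled arrays overlapped below the other 4, with differences of -1.89 against neutrophils (adjusted p = 0.107) and -1.67 against macrophages (adjusted p = 0.0608). Pdia4 was at 8.90, 8.10 and 8.24 on T2M-labelled arrays, against 7.38 and 6.33 on eosinophil-labelled, 8.11 and 10.06 on neutrophil-labelled, and 8.23 and 8.21 on macrophage-labelled arrays. It was above both eosinophil-labelled arrays, with an uncalled difference of 1.56 (adjusted p = 0.193), and overlapped the other labels. Creld2, which binds and reduces disulfides, was called nowhere, with T2M differences of 0.99, -0.39 and 0.83.

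**Figure D3:**
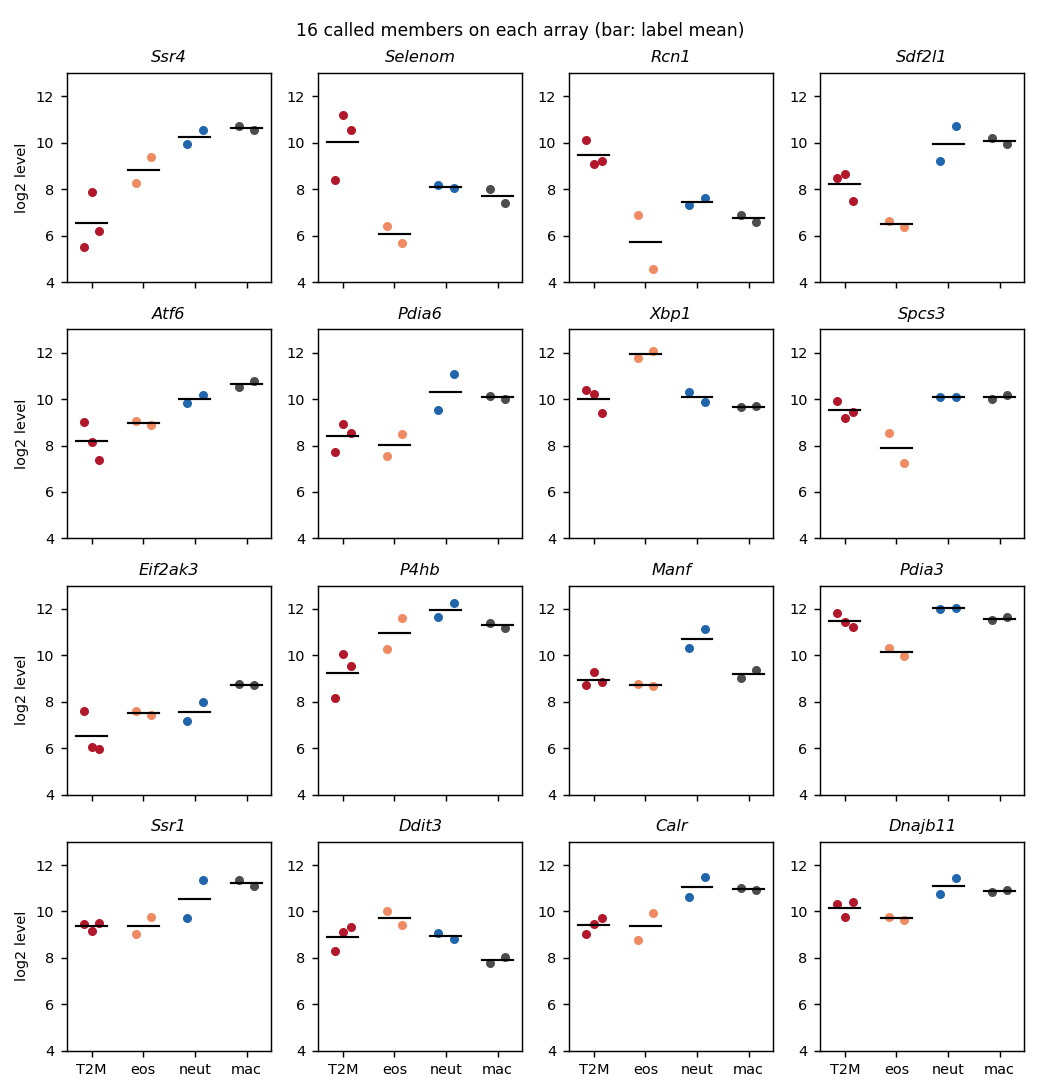
Each panel shows the log2 level of 1 called member on every array, with T2M, eosinophil- (eos), neutrophil- (neut) and macrophage-labelled (mac) arrays running left to right and a bar at each label mean. The T2M points of Ssr4 and P4hb are the lowest of all labels, those of Rcn1 and Selenom the highest, and the eosinophil-labelled points of Sdf2l1 and Spcs3 the lowest.

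The translocation channel, its associated TRAP complex and the signal peptidase gave 9 members with values. Of these, 0 were called against eosinophils, 1 lower against neutrophils and 2 lower against macrophages. Ssr4, a TRAP subunit, was at 5.51, 7.89 and 6.22 on T2M-labelled arrays, against 8.29 and 9.39 on eosinophil-labelled, 9.95 and 10.55 on neutrophil-labelled, and 10.74 and 10.54 on macrophage-labelled arrays. Every T2M-labelled array was below every other array, and the first was at the array median, with an SD of 1.22 over the 3. The falls of 3.71 relative to neutrophils (SE 0.65, adjusted p = 0.0276) and 4.10 relative to macrophages (SE 0.65, adjusted p = 0.00569) passed, and -2.30 against eosinophils did not (adjusted p = 0.0952). A second bright probe set of Ssr4 ran the other way, with 7.83, 8.99 and 7.95 on T2M-labelled arrays, against 7.56 and 7.71 on neutrophil-labelled and 7.32 and 7.53 on macrophage-labelled arrays. There the differences were 0.62 and 0.84 (adjusted p = 0.557 and 0.2), so the direction for Ssr4 depends on the probe set. The dimmest one gave 0.02 and -1.25.

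Ssr1, another TRAP subunit, had 9.44, 9.15 and 9.52 on T2M-labelled arrays, against 9.03 and 9.76 on eosinophil-labelled, 9.72 and 11.34 on neutrophil-labelled, and 11.36 and 11.11 on macrophage-labelled arrays. T2M was level with eosinophil-labelled arrays and below the others, and fell by 1.86 relative to macrophages (SE 0.45, adjusted p = 0.0279). The other 3 probe sets of Ssr1 gave -1.23, -1.11 and -1.71. Spcs3, a signal peptidase subunit, was at 9.91, 9.20 and 9.43 on T2M-labelled arrays, against 8.53 and 7.25 on eosinophil-labelled, 10.09 on both neutrophil-labelled, and 10.02 and 10.19 on macrophage-labelled arrays. It was above both eosinophil-labelled arrays and below the other 4, and the difference of 1.63 against eosinophils fell short of the threshold (SE 0.38, adjusted p = 0.0544). Sec61b, the beta subunit of the channel, had 10.21, 11.02 and 10.23 on T2M-labelled arrays, against 10.41 and 11.43 on eosinophil-labelled, 10.85 and 12.41 on neutrophil-labelled, and 12.30 and 12.10 on macrophage-labelled arrays. It lay below the macrophage-labelled pair without overlap, with a difference of -1.71 that did not pass (adjusted p = 0.0513). Sec61a1, the pore subunit, was level on its brightest probe set (differences of 0.31, 0.17 and 0.31), while another of its 6 probe sets gave -2.56 against macrophages (adjusted p = 0.0342). Ssr2, Ssr3, Spcs1 and Spcs2 were called in no pair of labels, with T2M differences between -1.10 and 0.39.

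**Figure D4:**
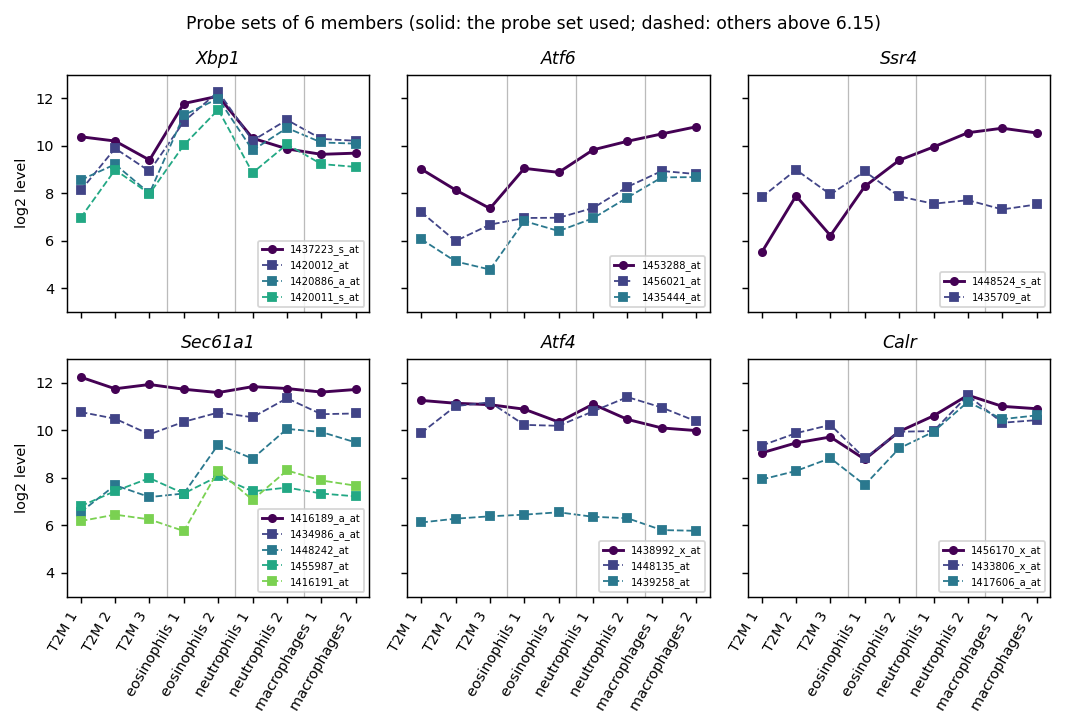
Log2 levels of every probe set with a mean above 6.15 are plotted by array for Xbp1, Atf6, Ssr4, Sec61a1, Atf4 and Calr, with T2M at the left. Solid lines are the probe sets used for the tests and dashed lines the others. The probe sets of Atf6 run in parallel, those of Ssr4 cross, and the solid Atf4 line is lower on both macrophage-labelled arrays than on any T2M-labelled one, while the bright dashed one overlaps there.

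Probe sets of 1 gene disagreed often enough to limit what single members show. Of 21 members with at least 2 probe sets above 6.15, differences of both signs occurred in 9 against eosinophils, 6 against neutrophils and 10 against macrophages. Xbp1 against eosinophils and Atf6 against macrophages were among the called members whose bright probe sets all ran one way, as were Eif2ak3, Ssr1 and Calr against macrophages with smaller values on some. The 3' minus 5' difference of the Gapdh controls was above that of every other label on the first and the third T2M-labelled array, at 3.43 and 2.97, and its part in these results was not tested.

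In ER-associated degradation, 0 of 4 members were called in any pair of labels. Herpud1, which organises the ubiquitin ligase at the ER membrane, was at 10.16, 9.77 and 10.02 on T2M-labelled arrays, against 9.46 and 9.59 on eosinophil-labelled, 7.41 and 9.81 on neutrophil-labelled, and 10.26 and 9.76 on macrophage-labelled arrays. The first neutrophil-labelled array stood far below the rest, and the difference of 1.37 against neutrophils did not pass (adjusted p = 0.298). Syvn1 (the ligase HRD1), its partner Sel1l and the mannosidase-like Edem1 had T2M differences between -1.0 and 0.28. The largest of these in size, Edem1 against neutrophils, was below both neutrophil-labelled arrays without overlap (SE 0.23, adjusted p = 0.0651).

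The 2 luminal proteins Rcn1 and Selenom were the members that stood highest on T2M-labelled arrays. Rcn1, the calcium-binding protein reticulocalbin-1, was at 10.11, 9.10 and 9.21 on T2M-labelled arrays, against 6.91 and 4.58 on eosinophil-labelled, 7.31 and 7.63 on neutrophil-labelled, and 6.91 and 6.60 on macrophage-labelled arrays. All T2M-labelled arrays were above all others, and the second eosinophil-labelled array lay below the array median. Rcn1 rose by 3.73 relative to eosinophils (SE 0.62, adjusted p = 0.0157) and by 2.72 relative to macrophages (SE 0.62, adjusted p = 0.0221), and 2.00 against neutrophils did not pass (adjusted p = 0.143). Selenom, a thioredoxin-like selenoprotein of the ER, had 8.39, 11.21 and 10.55 on T2M-labelled arrays, against 6.44 and 5.69 on eosinophil-labelled, 8.18 and 8.05 on neutrophil-labelled, and 8.02 and 7.39 on macrophage-labelled arrays. The first T2M-labelled array was only just above the neutrophil-labelled pair, and the other two stood far higher. The rise of 3.98 relative to eosinophils passed (SE 0.72, adjusted p = 0.0219), while 1.93 against neutrophils (adjusted p = 0.227) and 2.34 against macrophages (adjusted p = 0.0587) did not. Means over 10 lung epithelial and stromal markers were also highest on T2M-labelled arrays, 8.39 to 8.81, against 7.59 and 7.73 on eosinophil-labelled, 6.81 and 8.03 on neutrophil-labelled, and 6.54 and 6.92 on macrophage-labelled arrays. Of those 10 markers, 5 were called higher in T2M than in macrophages and 0 in the other T2M comparisons, and their part in the values of Rcn1 and Selenom was not tested.

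Every T2M call of a member was lost in at least 1 fit that left out 1 array. Against eosinophils, no member passed without the second eosinophil-labelled array, with adjusted p-values of 0.0514 for Rcn1, 0.122 for Xbp1, 0.154 for Selenom and 0.165 for Pdia3, and none passed in a fit of only these 5 arrays. Xbp1 was also lost without the first eosinophil-labelled array (adjusted p = 0.0513), and Selenom without the second (0.0522) or the third T2M-labelled (0.068), the first eosinophil-labelled (0.0608) or either macrophage-labelled array (0.0506). Pdia3 was lost without the second T2M-labelled (0.0657), the first eosinophil-labelled (0.0551) or either macrophage-labelled array (0.0652).

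Against neutrophils, Ssr4 and Manf were both lost without the third T2M-labelled (adjusted p = 0.0959 and 0.0968), the second neutrophil-labelled (0.0924 and 0.0595) or either macrophage-labelled array (0.0738 for both). Ssr4 was also lost without the first neutrophil-labelled array (0.0507) and Manf without the first T2M-labelled one (0.0501). Against macrophages, none of the 9 members passed with either macrophage-labelled array left out, with adjusted p-values from 0.0552 for Ssr4 to 0.262 for P4hb. Atf6, Ssr4 and Rcn1 kept their call without any other array. The direction of all these calls was the same in every fit that left out 1 array.

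The 3 T2M-labelled arrays and the macrophage-labelled pair gave different splits under another scaling. With quantile normalization, 3 members were called higher and 4 lower against macrophages, in place of 2 and 7. Calls of lower expression against macrophages also stood beside list means of 6.64 to 7.17 for 11 plasma and B cell markers on T2M-labelled arrays, against 7.33 and 7.34 on macrophage-labelled arrays, and 7.48 and 7.57 on neutrophil-labelled ones. Plasma cells hold much ER, and of these markers 0 were called higher and 2 lower in T2M against macrophages, and 0 higher and 3 lower against neutrophils. Of the 11 differences against macrophages, 4 were above 0 and 7 below. Jchain, the joining chain of secreted antibody, was at 9.65, 7.76 and 5.95 on T2M-labelled arrays. It was at 10.12 and 10.62 on macrophage-labelled and 7.42 and 8.08 on neutrophil-labelled arrays. Ighm ran the other way, at 11.77, 11.39 and 10.70 on T2M-labelled arrays, against 10.08 and 10.22 on macrophage-labelled arrays. The part of these cells in the members' values was not tested.

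Eosinophil-labelled arrays were also set against the other non-T2M labels. Against neutrophils, 1 member was called higher and 6 lower of 35, when 7.88% of all genes were called (3.55% higher, 4.33% lower). Against macrophages, 2 were called higher and 8 lower, when 17.4% of all genes were called (5.89% higher, 11.5% lower). The median member differences were -1.0 and -0.78, beside -0.07 and 0.18 over all genes. Over the 10785 genes with any label mean above 6.15, the medians were -0.16 and -0.31. With arrays shifted to a common median, the split against macrophages was 2 higher and 4 lower.

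Xbp1 was called higher on eosinophil-labelled than on neutrophil-labelled (1.84, SE 0.35, adjusted p = 0.0195) and macrophage-labelled arrays (2.27, SE 0.35, adjusted p = 0.00429). Ddit3 was called higher than on macrophage-labelled arrays (1.83, SE 0.38, adjusted p = 0.0142). The second probe set of Xbp1 gave 1.00 against neutrophils and that of Ddit3 gave 0.59 against macrophages, and neither passed. Sdf2l1 was lower by the widest margins among the members, -3.46 against neutrophils (SE 0.54, adjusted p = 0.00846) and -3.57 against macrophages (SE 0.54, adjusted p = 0.00354). Spcs3, Pdia6, Pdia3 and Dnajb11 were also called lower in both comparisons, by 2.20, 2.28, 1.89 and 1.39 below neutrophils and by 2.21, 2.06, 1.44 and 1.17 below macrophages. These calls differed in stability over the 10 refits other than those leaving out 1 array. Against neutrophils they stayed in 8, 2, 9 and 4 of the 10, in the same order, and against macrophages in 9, 5, 8 and 5. Manf was called lower than in neutrophils alone (-2.0, adjusted p = 0.0113), and Ssr1 (-1.84), Atf6 (-1.68) and Calr (-1.60) than in macrophages alone. Whether the differences against the 2 labels differed from each other was not tested.

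The calls of Sdf2l1 and Xbp1 against macrophages were the only 2 of 32 member calls, over all pairs of labels, that stayed in all 19 refits with other processing or fewer arrays. The other 3 probe sets of Xbp1 gave 1.41, 1.52 and 1.61 against macrophages, and none passed over all probe sets. Sdf2l1 and Pdia3 against neutrophils also stayed without any 1 array. Neutrophil- and macrophage-labelled arrays were separated in 0 of 35 members by limma, when 2.26% of all genes were called, 1.13% in each direction (5 members at an unadjusted p under 0.05). The widest member difference there was 1.53 for Manf (SE 0.34, adjusted p = 0.0624).

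The 8 members with an ERSE in their window were set beside the 21 that had a window without it and a value. Against neutrophils all 8 had a T2M difference below 0, with a median of -0.72 and 0 calls, and of the 21, 17 were below 0, with a median of -0.53 and 1 call. Against macrophages the medians were -0.34 and -0.59, with 1 and 6 calls. Against eosinophils they were 0.22 and -0.13, with 0 and 3 calls. Over all genes, 47% of the differences against neutrophils were above 0. The shares of all genes called were 2.82% against neutrophils, 17.2% against macrophages and 4.46% against eosinophils. The sets differ in size, and their counts were not tested against each other.

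Other genes of the pathway were read in 6 lists that hold no member, 98 genes in all, of which 25 were called in a T2M comparison. The share of all genes called in any T2M comparison is not given here and is at least 17.2%, the share against macrophages. Against eosinophils 4 were called higher and 2 lower, against neutrophils 2 higher and 6 lower, and against macrophages 5 higher and 16 lower. These are 6.12%, 8.16% and 21.4% of the list, beside 4.46%, 2.82% and 17.2% of all genes. Their median differences were 0.16, -0.46 and -0.39. Plasma cell gene Mzb1 belongs to both these lists and the marker list above.

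Among 22 other folding and redox genes, Ero1a, the oxidase that recharges disulfide isomerases, was at 10.91, 11.47 and 11.22 on T2M-labelled arrays, against 9.74 and 9.93 on eosinophil-labelled, 9.15 and 9.90 on neutrophil-labelled, and 8.46 and 8.32 on macrophage-labelled arrays. It was above every other array and rose relative to eosinophils by 1.37 (adjusted p = 0.0367), neutrophils by 1.68 (adjusted p = 0.0269) and macrophages by 2.81 (SE 0.29, adjusted p = 0.001). The last of these calls stayed in all 19 refits with other processing or fewer arrays, while the first stayed in 7 and the second in 11. Against macrophages 4 genes of the list fell, when 10.6% of all genes were called lower. Among the 4, the isomerase-like Erp29 fell by 2.14 (SE 0.43, adjusted p = 0.0146). Prdx4, a peroxiredoxin of the ER, was not called, with its widest difference of 1.46 against eosinophils (adjusted p = 0.333).

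In 16 genes of the integrated stress response, the programme that ATF4 drives, calls went both ways, with 4 higher and 3 lower against macrophages. Of all genes, 6.53% were called higher and 10.6% lower in that comparison. Slc7a11, the cystine transporter, was at 10.39, 10.89 and 11.01 on T2M-labelled arrays, against 11.42 and 12.07 on eosinophil-labelled, 8.15 and 9.02 on neutrophil-labelled, and 4.89 and 4.27 on macrophage-labelled arrays. The macrophage-labelled pair was below its array medians and the eosinophil-labelled pair on top. Slc7a11 rose in T2M relative to macrophages by 6.19 (SE 0.37, adjusted p = 0.000139), a call that stayed in all 19 such refits. Phgdh, the first enzyme of serine synthesis, rose by 2.89 relative to macrophages (SE 0.68, adjusted p = 0.0255). Asns, asparagine synthetase, spread from 5.17 to 10.24 over the T2M-labelled arrays and was not called (2.42 against macrophages, adjusted p = 0.187).

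Glycan-handling and targeting genes were called lower against macrophages in 3 of 13 each, with 0 higher. Of all genes, 10.6% were called lower and 6.53% higher there. The glucosidases Ganab (-1.95, SE 0.36, adjusted p = 0.0108) and Mogs (-1.80, SE 0.52, adjusted p = 0.0474) trim new glycans, and Srpr (-1.89, SE 0.48, adjusted p = 0.0332) encodes the signal recognition particle receptor. The signal peptidase subunit Sec11a fell relative to neutrophils by 1.72 (SE 0.29, adjusted p = 0.0266). Of 14 other degradation genes, Derl2, part of the retrotranslocation machinery, fell by 2.82 (SE 0.43, adjusted p = 0.00515) and the ATPase Vcp by 1.74 (SE 0.50, adjusted p = 0.0489) relative to macrophages. Of 20 ER to Golgi transport genes, the cargo receptor Lman1 rose relative to eosinophils by 2.23 (SE 0.33, adjusted p = 0.0108) and the coat subunit Sec24c fell relative to macrophages by 1.76 (SE 0.33, adjusted p = 0.0113). Uncalled genes with the widest differences of their lists were Tusc3 (1.34 against eosinophils), Srprb (-1.30 against neutrophils), Selenok (-2.05 against eosinophils) and Sec24d (1.51 against eosinophils). Ganab (-0.33), Vcp (-1.08) and Sec24c (-0.77) against macrophages, Sec11a against neutrophils (-0.84) and Lman1 against eosinophils (1.42) also lost their calls with probe sets averaged per gene, and the call of Sec11a against neutrophils stayed in 8 of 19 refits. The calls of Ganab, Mogs, Srpr, Derl2, Vcp, Sec24c, Erp29 and Phgdh against macrophages were lost when either macrophage-labelled array was left out, and Lman1 lost its call against eosinophils when either eosinophil-labelled array was left out (adjusted p = 0.0589 and 0.0542).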

How the data were processed

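The deposited table holds log2 expression values of 45101 probe sets on 9 arrays. The submitters' processing notes name RMA, affy and limma without versions or settings, so the values were used as deposited. Of the probe sets, 34945 carry 1 gene symbol in the platform annotation, 932 several and 9160 none, and 64 are controls; the 18193 genes come from the first of these, by the probe set with the highest mean. Every value column matched an array label, and 0 were left over.

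Each array is 1 pool of donors. Nothing says that the pools are separate experiments, so p-values measure at most the spread between pools. The small number of arrays limits the precision. If the macrophage-labelled arrays hold 1 RNA, their difference is not a spread between pools. It would still enter the variance shared by all comparisons, so p-values could then be too small in each of them. Group means were fitted with limma 3.58.1 (R 4.3.3) on all 9 arrays (5 residual and 3.26 prior degrees of freedom), moderated with eBayes and tested two-sided. P-values were adjusted over all 18193 genes by Benjamini-Hochberg, and genes with an adjusted p under 0.05 were called. The median standard error of a member was 0.41 in T2M comparisons and 0.45 in the others. Where 1 array of a pair was left out, the remaining one was assumed to vary like the other labels. The fit was also run on simulated data with 200 changed genes. The outcome of that run is not given here and is not used as support for any call.

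The members and gene lists were chosen with earlier results of these data known. Values on every array are given for the 16 called members with the widest called difference and for the widest uncalled T2M difference in each role; Atf4, the other called member, was added after its values were seen. From each pathway list up to 2 called genes and 1 uncalled are named, by the widest T2M difference. Alternatives changed the probe set rule, a filter on dim genes, the scaling, array weights, the moderation, the arrays in the fit and the use of replicate numbers. Promoter windows and probe set annotation were read with Python 3.11.15 from RefSeq and platform tables; 34741 probe sets matched RefSeq by gene ID. Protein sequences were not used here, and a planned look at protein ends was not done.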

Additional observations from a re-analysis of the deposited data

How the results depend on the processing

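Counts of called members are given as higher and lower. For T2M minus eosinophils (3 and 1), they were 0 and 0 from these labels alone, 1 higher with the macrophage-labelled arrays averaged, and 2 lower with array weights, with probe sets averaged per gene or without both arrays of differing actin ends. For T2M minus neutrophils (0 and 2), 0 were lower with weights, from these labels alone or with averaged macrophage-labelled arrays, and 2 were higher without the actin arrays. For T2M minus macrophages (2 and 7), 4 were lower with quantile normalization, 5 higher and 18 lower with weights, and 0 and 0 with averaged macrophage-labelled arrays; without the actin arrays the median was -0.72. For eosinophils minus neutrophils (1 and 6), 0 were higher with averaged probe sets, 0 higher and 2 lower with weights, and 0 and 0 from these labels alone. For eosinophils minus macrophages (2 and 8), 4 were lower with a common median, 14 with weights and 13 from these labels alone, and 1 and 1 with averaged macrophage-labelled arrays; the median was -0.47 with averaged probe sets and -0.48 with quantile normalization. For neutrophils minus macrophages, 1 was higher with either. Calls over all genes moved with these settings too, so the shares given for the main fit do not apply to these member counts. Among these alternatives, all genes called reached 10163 for T2M minus macrophages and 6400 for eosinophils minus macrophages. In the main fit they were 3123 and 3163, and other alternatives gave fewer than the main fit. The causes were not tested. With the probe set of second highest mean, chosen after seeing the data, Ssr4 reversed to 0.62 against neutrophils and 0.84 against macrophages.

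Leaving out 1 array gave 0 to 4 higher, 0 to 3 lower and medians of 0.08 to 0.32 for T2M minus eosinophils; 0 to 1, 0 to 4 and -0.99 to -0.37 for T2M minus neutrophils; 0 to 3, 0 to 9 and -0.72 to -0.22 for T2M minus macrophages; 0 to 2, 3 to 9 and -1.30 to -0.65 for eosinophils minus neutrophils; 1 to 3, 1 to 11 and -0.86 to -0.68 for eosinophils minus macrophages; and 0 to 1, 0 to 2 and 0.04 to 0.48 for neutrophils minus macrophages. Of 608 planned refits of the 32 called member differences, 404 kept the call, 204 lost it and 0 reversed. Quantile normalization moved the median of all genes for T2M minus macrophages to 0.03, against 0.18 as deposited, and the member median there was -0.22. Over all genes the calls of T2M minus macrophages ranged between 434 and 5070 when 1 array was left out, against 3123 on all arrays.

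Same-numbered arrays deviated together for T2M and eosinophils (correlations of 0.50 and 0.44) and for no other pair of labels (at most 0.05), so the numbers were not taken as pairing. With the replicate block, T2M minus eosinophils had 1 higher and 0 lower, T2M minus neutrophils 0 lower, and T2M minus macrophages 1 higher and 4 lower. With the neutrophil numbers crossed, an alternative chosen after seeing the data, these were 0 lower against neutrophils, 1 higher and 3 lower against macrophages, and 5 lower for eosinophils minus macrophages.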

Other observations

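The genes below lie outside the 35 members and were picked after their values were seen. Chac1, a glutathione-degrading enzyme induced by ATF4, was at 5.44, 5.35 and 5.69 on T2M-labelled arrays, against 7.85 and 8.30 on eosinophil-labelled, 4.80 and 5.49 on neutrophil-labelled, and 3.94 and 4.05 on macrophage-labelled arrays. The eosinophil-labelled pair stood above the rest. Chac1 fell in T2M relative to eosinophils by 2.58 (SE 0.28, adjusted p = 0.00303 by limma), a call kept in 19 of 19 refits with other processing or fewer arrays, and the T2M levels were near the array medians. Chac1 was also called higher on eosinophil-labelled than on neutrophil-labelled arrays, by 2.93 (adjusted p = 0.00204), and than on macrophage-labelled arrays, by 4.08 (adjusted p = 0.000182).

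Nupr1, a small stress-induced nuclear protein, was at 7.97, 8.75 and 8.06 on T2M-labelled arrays, against 8.36 and 8.48 on eosinophil-labelled, 10.60 and 10.68 on neutrophil-labelled, and 10.36 and 10.54 on macrophage-labelled arrays. The values fell into a low pair and a high pair of labels. In T2M, Nupr1 fell by 2.19 relative to macrophages (SE 0.27, adjusted p = 0.0022 by limma), kept in 19 of 19 refits with other processing or fewer arrays, and relative to neutrophils by 2.38 (adjusted p = 0.00811), kept in 16 of 19.

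Across the 98 pathway genes outside the members, eosinophil-labelled arrays were called higher in 3 and lower in 15 against neutrophils, 18.4% of the list when 7.88% of all genes were called. Against macrophages they were called higher in 4 and lower in 18, 22.4% when 17.4% of all genes were called. Lman1, the cargo receptor of ER to Golgi transport, was at 6.15 and 6.60 on eosinophil-labelled arrays, against 9.98 and 9.97 on neutrophil-labelled and 9.20 and 9.32 on macrophage-labelled arrays. In eosinophils Lman1 fell by 3.60 relative to neutrophils (adjusted p = 0.00197 by limma), and it fell by 2.88 relative to macrophages (adjusted p = 0.00181). Slc7a11 had the widest difference of the list, 7.17 higher on eosinophil-labelled than on macrophage-labelled arrays (adjusted p = 9.31e-05 by limma).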
